A study of Mus musculus with 24 samples.

Results

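The cytosolic ribosomal protein genes are the nuclear genes that encode the protein parts of the cytoplasmic ribosome. They were followed here as 79 genes in lymphoid progenitor libraries from a CRISPR/Cas9 study of transcription regulators. The genes were chosen by their symbol (the Rpl and Rps series, Rpsa and Rplp0 to Rplp2), by a protein-coding type, and by a measured value, a mean of at least 10 CPM (reads on a gene after each library is scaled to the same total) over the 3 control LP libraries of experiment 1. Of 55487 genes listed in both tables, 89 carried a matching symbol, 83 of these were protein-coding, and 79 passed the level threshold, 47 of the large 60S subunit and 32 of the small 40S subunit. The level was the only measured value used in the choice, and its 3 libraries also enter the experiment 1 comparisons with LP sgControl. The genes and gene lists were picked with earlier results of these libraries known.

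The cells were Cas9-LP cell lines, lymphoid progenitors derived from fetal liver of mice that lack Ebf1 and carry Cas9 in the Rosa26 locus, and were kept on OP9 stroma with SCF, Flt3L and IL-7. All 8 groups share this background, and each received a retrovirus that carries an sgRNA and human NGFR, with 3 vectors per target gene pooled. Transduced hNGFR+ CD45+ cells were sorted 5 days after transduction, so a group is a pool of transduced cells and not a clone. Experiment 1 held 4 groups of 3 libraries: sgControl (sgCont, against luciferase) and sgCbfb, each as LP on OP9 without Notch stimulation (Notch-) and as Phase 1, on OP9-DLL4 with 2 days of Notch stimulation (Notch+). Experiment 2 held 4 LP groups of 3 libraries, sgControl, sgCbfb, sgCTCF and sgMed12. Cbfb is the partner of the RUNX factors, CTCF organises chromatin loops, and Med12 belongs to the kinase module of Mediator.

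Each ribosome carries its proteins in nearly equal numbers, and cells make them from messages that share a pyrimidine-rich start, the 5′ terminal oligopyrimidine (TOP) tract. The TOP tract places their translation under mTORC1, and their transcription in dividing blood progenitors is among the largest outputs of RNA polymerase II. When assembly of the ribosome is disturbed, Rpl5 and Rpl11 together with the 5S RNA bind Mdm2 and stabilise p53.

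The start regions of 7 members to which the results return are shown so that the letters around the start can be compared. They were taken from RefSeq promoters of build GRCm38.p6, which held 59 of the 79 members, and each covers 40 bases before and 20 bases from the annotated start. The capitals mark the pyrimidine run of at least 5 letters that holds the annotated start or, where none does, lies nearest to it. Positions and strands were chrX:134585614-134585673 (plus) for Rpl36a, chr14:18270967-18271026 (minus) for Rpl15, chr17:24720023-24720082 (plus) for Rps2, chr7:45128726-45128785 (minus) for Rpl13a, chr9:120127726-120127785 (plus) for Rpsa, chr2:26910767-26910826 (plus) for Rpl7a and chr17:33955646-33955705 (minus) for Rps18.
Rpl36a: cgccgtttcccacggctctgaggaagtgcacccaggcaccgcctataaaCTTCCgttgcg
Rpl15: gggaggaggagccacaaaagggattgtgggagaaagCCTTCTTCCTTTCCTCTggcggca
Rps2: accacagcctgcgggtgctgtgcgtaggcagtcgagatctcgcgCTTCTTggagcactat
Rpl13a: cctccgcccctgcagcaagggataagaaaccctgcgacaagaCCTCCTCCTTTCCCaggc
Rpsa: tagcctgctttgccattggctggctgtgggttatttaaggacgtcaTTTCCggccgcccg
Rpl7a: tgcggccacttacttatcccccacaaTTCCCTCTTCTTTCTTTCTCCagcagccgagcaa
Rps18: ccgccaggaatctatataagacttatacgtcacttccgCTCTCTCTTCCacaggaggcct
The run was 21 bases long in Rpl7a, 17 in Rpl15, 14 in Rpl13a and 11 in Rps18, and 5 or 6 bases in Rpl36a, Rps2 and Rpsa. It held the annotated start in Rpl15, Rpl7a and Rps18, and began 2, 4, 6 and 9 bases after it in Rpl13a, Rps2, Rpsa and Rpl36a, so in these 4 the marked run is not a TOP tract at the annotated start.

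Motifs were counted in the 300-base promoters, 70 of which belong to members because some genes have more than 1 start, against all 32851 promoters. A C at the annotated start followed by at least 4 pyrimidines on the gene's strand stood in 18.6% of the member promoters and in 2.51% of all. The ETS motif CCGGAAG, on either strand, was in 37.1% against 8.86%, and the YY1 motif AAGATGGCG, on either strand, in 8.57% against 1.4%. The RUNX motif TGTGGT was in 8.57% of the member promoters against 16.8% of all, the CTCF core motif in 4.29% against 2.43%, and TATAAA in 10.0% against 13.6%, each on either strand. CCGGAAG and AAGATGGCG share the letters AAG and can overlap in a promoter, and a match describes only the letters of this window.

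Libraries of experiment 1 held 1363263 to 1743319 reads on genes and those of experiment 2 held 3354483 to 4326782. A count of 0 allows a level of up to 2.201 CPM in experiment 1 and 0.894 CPM in experiment 2, counting error only. Each read of this 3′ method stands for 1 transcript end, so CPM compares genes without a length correction, and every level below is a share of the library. Fewer cells of a type and less RNA per cell cannot be told apart in such bulk samples. The targeted genes were read at 86.5 CPM in LP sgControl against 40.2 CPM in LP sgCbfb for Cbfb in experiment 1, 114 against 48.4 CPM for Cbfb in experiment 2, and 391 against 306 CPM for Ctcf in sgCTCF cells, each called lower by limma. In Phase 1, Cbfb was read at 66.5 ± 19.2 CPM in sgControl (44.7 to 81.3 CPM) and 53.9 ± 9.69 CPM in sgCbfb libraries (44.1 to 63.5 CPM). These libraries overlapped, and the lower mean was not called by limma (log2 difference -0.27 ± 0.22, adjusted P = 0.59). The paper reports loss of the CBFβ protein by immunoblot in Cas9-LPs that received sgCbfb. Summed over Tcf7, Gata3, Hes1, Il2ra, Dtx1 and Notch3, Phase 1 sgControl libraries averaged 881 CPM and Phase 1 sgCbfb libraries 337.5 CPM. Of these genes, Hes1 and Notch3 did not have a lower mean in sgCbfb. Med12 was read at 5.1 CPM in sgControl and 7.0 CPM in sgMed12 cells, and a 3′ tag counts a transcript whether or not the cut changed its protein. The progenitor markers Flt3, Il7r, Kit, Notch1 and Ptprc were read in every group, the B-lineage marker Cd79a was at 0, and Ebf1 transcripts were read at 161 to 334 CPM as group means although the line lacks functional Ebf1. Summed stromal markers reached 39.27 CPM at most, with Dcn and Col3a1 at 0.

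Some libraries stood apart before any comparison was made. Phase 1 sgControl replicate 3 read 14 of the 79 members over 1.5 times below and 1 member over 1.5 times above the mean of the other 2 libraries of its group, and 20.2% of the other genes of at least 50 CPM were over 1.5 times away from theirs. In the LP groups of experiment 1 and in Phase 1 sgCbfb, 0 to 2 members per library lay that far away. In experiment 2, sgMed12 replicate 2 read 11 members over 1.5 times above the mean of sgMed12 replicates 1 and 3, and 11.9% of other genes lay that far away. Replicates 1 and 3 of sgMed12 had 13.66% and 11.18% of their reads on mitochondrial genes, against 8.44% in replicate 2 and 6.76% to 8.15% in the other libraries of experiment 2. What sets these libraries apart was not tested.

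Single members differed widely in level. In LP sgControl cells of experiment 1 the highest member, Rps14, was read at 4757 ± 265 CPM (SD, n = 3) and the lowest, Rps10, at 52.8 CPM, a 90.2-fold range around a median of 764 CPM. The 5 highest members, Rps14, Rplp1, Rps26, Rps20 and Rpl23a, held 22.9% of the members' reads. In the LP sgControl cells of both experiments 30 members were at 1000 CPM or more and 5 were under 100 CPM. Across the 79 genes, the LP sgControl means of the 2 experiments had a Spearman rho of 0.991 and 0 members lay over 1.5 times apart, a description of genes read with the same method.

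The 5 highest members kept their place in most groups. Rps14, a 40S protein, was at 5021 ± 131 CPM in LP sgCbfb, 5228 ± 604 in Phase 1 sgControl and 4570.5 ± 336 in Phase 1 sgCbfb cells of experiment 1 (n = 3 each). In experiment 2 it was at 3730.3 ± 336 CPM in sgControl, 3969 ± 180 in sgCbfb, 3614 ± 91.2 in sgCTCF and 2877 ± 829 in sgMed12 cells, where replicates 1, 2 and 3 gave 2340.0, 3832 and 2459 CPM. Of the 3 sgMed12 libraries, 2 were below the lowest control value of 3509.7 CPM, and the difference was not called against sgControl (log2 difference -0.41, limma adjusted P = 0.072), while it was called lower against sgCbfb with overlapping libraries (-0.50, adjusted P = 0.013). Rplp1, an acidic stalk protein, ranged from 3672 to 4109.9 CPM and Rps26 from 2970.2 to 4272 CPM over the 8 group means. Rps20 ranged from 2304 CPM in sgCTCF to 3372 CPM in Phase 1 sgControl cells, and Rpl23a from 1725 CPM in sgMed12 to 2418 CPM in sgCbfb cells of experiment 2. Rps14 and Rps26 were higher in every library of experiment 1 than in every library of experiment 2. Rps26 was at 3487 to 4462 CPM in libraries of experiment 1 and at 2726 to 3387 CPM in those of experiment 2. This difference between the experiments was not tested. Rps20 and Rpl23a return below.

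The threshold of 10 CPM fell into an empty stretch of the level scale. Just inside it were Rps10 at 52.8, Rpl15 at 53.7 and Rpl10a at 66.5 CPM, and just outside it the coding gene Rpl3l was at 7.16 CPM, followed by Rpl6l and Rps3a3, which are not protein-coding and were lower still. The coding genes Rpl39l, Rpl10l and Rpl24 were listed at 0 CPM in the 3 libraries that set the threshold. The protein made from Rpl24 is part of every 60S subunit, so this 0 is given only as listed, and Rpl24 shares exon bases with a second gene model on its strand in the annotation used here (GENCODE M21). Of the members, 26 share exon bases with another gene on the same strand, often a snoRNA or a short RNA, and 19 with a gene on the opposite strand. Near-identical copies are a further limit, since 319 ribosomal protein pseudogenes are listed and how multiply mapped reads were counted is not given in the sources used here.

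Summed over the 79 genes, the members took a smaller share of the reads in sgCTCF and sgMed12 cells than in sgControl cells. In sgControl LP libraries of experiment 2 they held 7.95%, 7.90% and 7.47% of reads, and in sgCbfb libraries 8.14%, 7.75% and 7.47%. The sgCTCF libraries held 6.83%, 6.32% and 6.87%, all below every sgControl library, a mean 14.16% lower. The sgMed12 libraries held 6.55%, 7.44% and 6.52%, a mean of 6.839% against 7.771% in sgControl, and replicate 2 lay just below the lowest control library. With mitochondrial genes and the most abundant gene left out of the total, the sgCTCF mean was 11.94% lower and the sgMed12 mean 5.12% lower. With sgMed12 replicates 1 and 3 left out instead, the sgMed12 level, then 1 library, was 4.25% lower. The mitochondrial share of these 2 libraries is given above, and its part in the result was not tested.

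In experiment 1, LP sgControl libraries held 7.66%, 8.18% and 7.98%, LP sgCbfb 7.82%, 8.48% and 8.07%, Phase 1 sgControl 7.94%, 7.43% and 7.73%, and Phase 1 sgCbfb 7.60%, 7.11% and 7.20%. The Phase 1 sgCbfb mean was 10.12% below LP sgCbfb with no overlap of libraries (9.94% below with the total that leaves out mitochondrial genes and the most abundant gene), while the Phase 1 sgControl mean was 3.04% below LP sgControl with overlap. The ratio of summed 60S to summed 40S levels had group means between 1.002 and 1.05 in all 8 groups, so both subunits took nearly equal shares throughout.

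**Figure D1:**
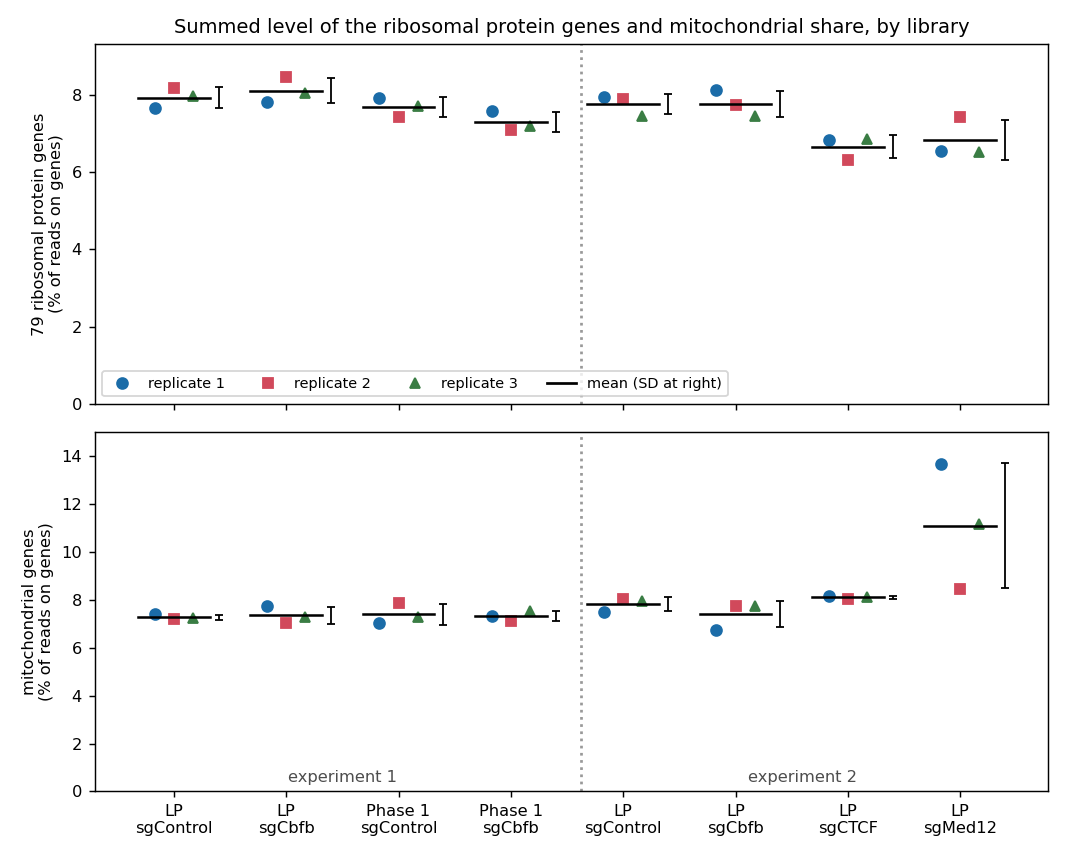
Upper panel: share of reads on genes (%) taken by the 79 ribosomal protein genes in each of 24 libraries; lower panel: share on mitochondrial genes (%). Points are libraries, lines group means and bars SD (n = 3). The 3 sgCTCF libraries (6.32% to 6.87%) lie below the 3 sgControl libraries (7.47% to 7.95%), and sgMed12 replicates 1 and 3 have both a low member share and a mitochondrial share over 10%.

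Targeting of Cbfb in LPs was compared first, in 2 separate experiments, to ask whether the RUNX partner bears on these genes without Notch stimulation. Limma on log2(CPM + 1), with Benjamini-Hochberg adjustment over all genes tested, called 0 members higher and 0 lower in experiment 1, where 1.76% of 13239 genes were called higher and 1.09% lower. At unadjusted P under 0.05 the counts were 0 higher and 1 lower, where 11.8% of all genes passed in either direction. EdgeR's quasi-likelihood test called 0 as well. In experiment 2, which was sequenced more deeply, limma again called 0 and 0, where 6.91% of 13177 genes were called higher and 5.57% lower. Unadjusted, 1 was higher and 2 lower, where 23.9% of all genes passed in either direction, and edgeR called 0. By the study's 3 thresholds (adjusted P under 0.05, over 2-fold, mean over 10 in either group) 1.69% and 4.33% of genes passed, and 0 members. The median log2 difference of the members was 0.015 in experiment 1 and -0.008 in experiment 2, with a median standard error of 0.117 and 0.107. In experiment 2, without sgMed12 replicate 2 in the shared fit, 1 member was called higher and 2 lower (8.46% and 7.72% of all genes).

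The paralog genes Rps27l and Rpl22 differed in the same direction in both experiments, and neither was called. Rps27l, a Rps27 paralog known as a p53 target, was at 233, 294 and 254 CPM in LP sgControl and 179, 241 and 201 CPM in LP sgCbfb libraries of experiment 1 (log2 difference -0.33 ± 0.16 SE, adjusted P = 0.40). In experiment 2 it was at 312, 294 and 313 CPM against 271, 224 and 266 CPM (-0.28 ± 0.13, adjusted P = 0.19). Rpl22, whose protein takes part in lymphocyte development, was at 1257, 1404 and 1349 CPM against 1421, 1542 and 1544 CPM in experiment 1 and at 1144, 1213 and 1078 CPM against 1432, 1265 and 1286 CPM in experiment 2. Every sgCbfb library was above every sgControl library for Rpl22 in both experiments, by 0.17 ± 0.13 and 0.21 ± 0.10 on the log2 scale (adjusted P = 0.73 and 0.19). Such an upward separation was seen in 3 and 4 of the 79 members, against 9.11% and 15.5% of all genes.

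Notch stimulation and the stage-specific effect of sgCbfb were compared in experiment 1. From LP to Phase 1, sgControl cells had 0 members called higher and 0 lower, where 3.26% of genes were called higher and 3.23% lower. At unadjusted P under 0.05, 0 members were higher and 15 lower, where 19.8% of all genes passed in either direction. In sgCbfb cells 0 and 0 were called, where 1.28% and 0.959% of genes were. The unadjusted counts were 0 and 16, where 12.1% of all genes passed in either direction. The median log2 difference was -0.055 in sgControl and -0.162 in sgCbfb cells, beside -0.069 and -0.015 over all genes. Within Phase 1, sgCbfb against sgControl again gave 0 and 0, where 3.37% and 2.6% of genes were called. Unadjusted, 4 were higher and 8 lower, where 17.8% of all genes passed in either direction. By the study's thresholds 0 members passed, against 3.52% of genes. The interaction of stage and sgCbfb was called for 0 members in either direction, where it was called for 0.612% of genes upward and 0.657% downward. Unadjusted, 1 and 3 members passed, where 10.3% of all genes did in either direction. EdgeR called 0 members in each of these 4 comparisons.

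Single libraries bear on these counts. In sgControl cells 13 members were called lower in Phase 1 without Phase 1 sgControl replicate 1 (4.76% of all genes) and 5 without replicate 2 (4.06%), each fit then holding replicate 3 as 1 of 2 libraries. In Phase 1, sgCbfb against sgControl gave 3 higher without Phase 1 sgControl replicate 1 (4.6% of all genes), 1 higher without replicate 2 (3.95%) and 1 lower without replicate 3. The last was Rps3a1, named after its value was seen (-0.46 ± 0.13, adjusted P = 0.015, where 2.9% of genes were called lower). In sgCbfb cells 1 member was called lower in Phase 1 without LP sgCbfb replicate 1 (0.535% of all genes), 2 without Phase 1 sgControl replicate 3 (2.15%), and 4 when the fit held only the 2 groups compared (2.62%). Of the 79 members, 27 had every Phase 1 sgCbfb library below every LP sgCbfb library, a separation that 9.74% of all genes showed in that direction.

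Members that Phase 1 sgControl replicate 3 read low gave large differences in the stage comparison of sgControl cells, and Rpl7a and Rps18 are named here after their values were seen. Rpl7a, a 60S protein, was at 364 and 379 CPM in Phase 1 sgControl replicates 1 and 2 and at 49.1 CPM in replicate 3. It was at 389 to 441 CPM in LP sgControl and 363 to 415 CPM in Phase 1 sgCbfb libraries, so 1 library alone was low. Rps18, a protein of the 40S head, was at 699, 572 and 141 CPM in the same 3 libraries, and Rpl22l1, the Rpl22 paralog, at 188, 152 and 38.9 CPM. With all libraries the log2 difference of Rpl7a from LP to Phase 1 was -1.12 ± 0.44 (adjusted P = 0.14), and without replicate 3 it was -0.15 ± 0.12 (adjusted P = 0.56). The long pyrimidine runs of Rpl7a and Rps18 are printed above, and Rps6, at 57.2, 41.3 and 82.9 CPM, went the other way in this library.

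**Figure D2:**
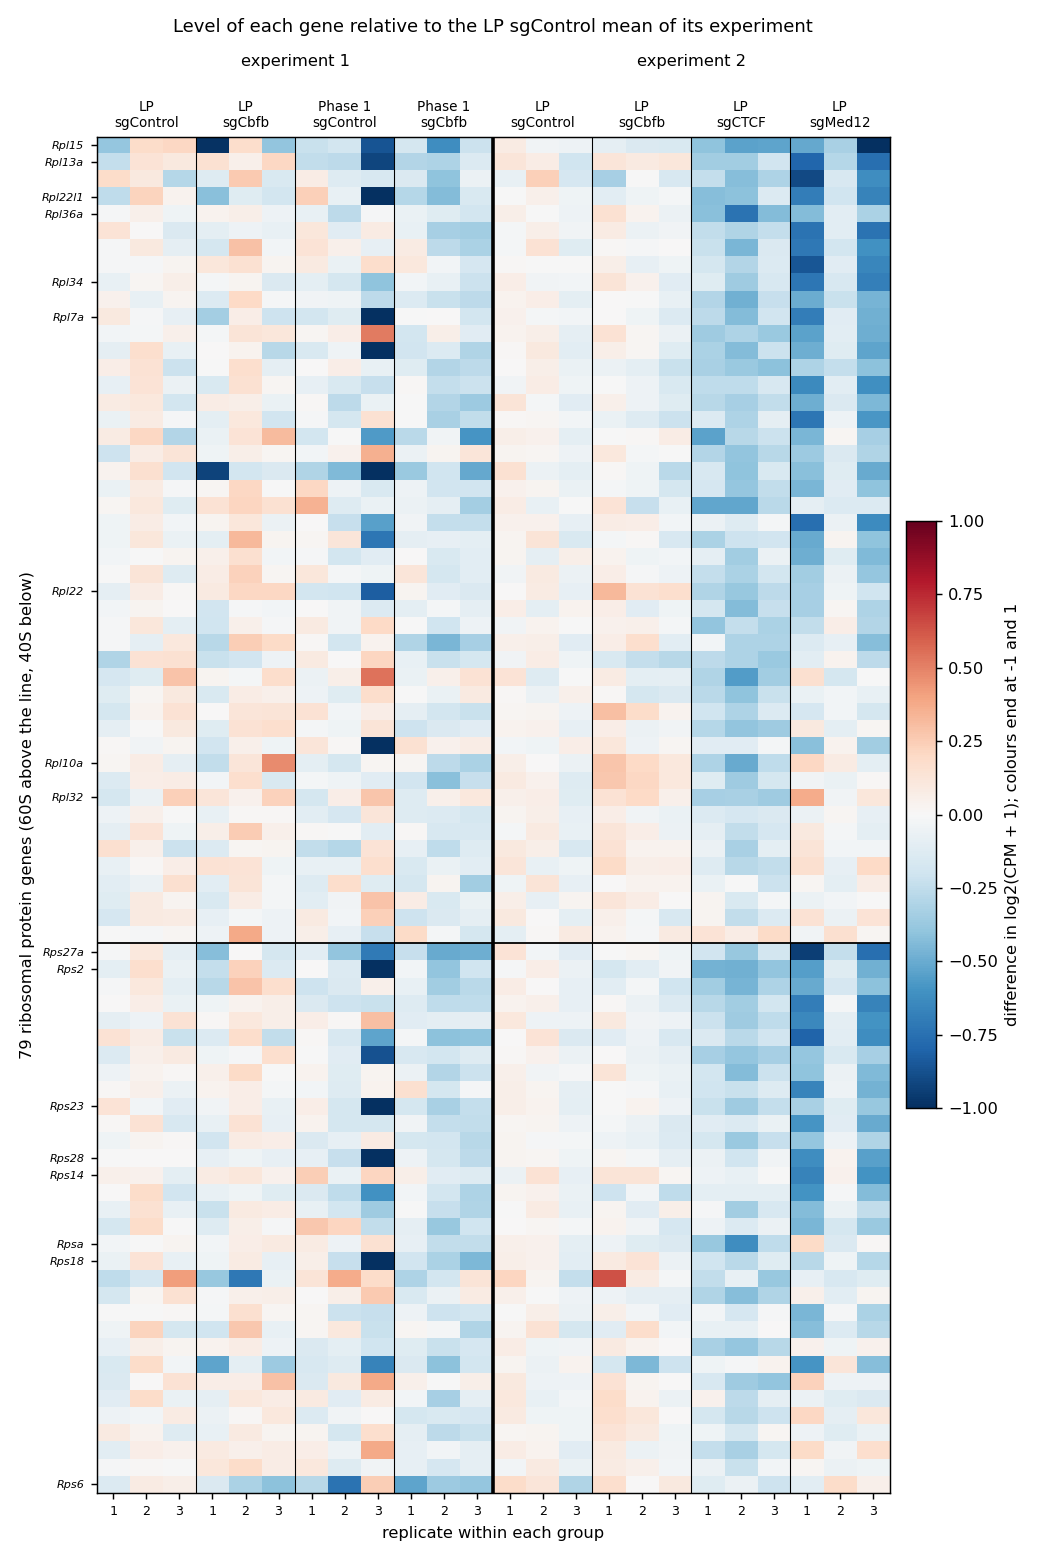
Each row is 1 of the 79 ribosomal protein genes (a selection is labelled), each column a library, and colour gives the difference in log2(CPM + 1) from the mean of the 3 LP sgControl libraries of the same experiment, with colours ending at -1 and 1. Blue columns are broad in sgCTCF (3 libraries) and in sgMed12 replicates 1 and 3, and the dark cells of Phase 1 sgControl replicate 3 include Rpl7a, Rps18, Rpl22l1, Rps23 and Rps28.

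Targeting of CTCF in LPs was compared in experiment 2, and 20 ribosomal protein genes, from both subunits, fell by less than 2-fold. Limma called 0 members higher and 20 lower, 25.3% of the 79, where 6.13% of 13177 genes were called higher and 4.2% lower. Of the 20, 14 encode 60S and 6 encode 40S proteins, and 78 of 79 members had a log2 difference below 0, as had 52.1% of all genes. The median was -0.247, a median change of the mean level of -15.81%, beside a median of -0.016 over all genes tested. In 56 members every sgCTCF library was below every sgControl library, which 15.1% of all genes showed. By the study's 3 thresholds 0 members passed the study's 3 thresholds, where 2.43% of genes did. The 8 stromal markers summed to 14.1 to 30.32 CPM in sgCTCF libraries and 0.487 to 27.95 CPM in sgControl libraries, with Dcn and Col3a1 at 0 in both, and their part in the result was not tested.

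Rpl36a, a 60S protein at the exit site for tRNA, had the largest called fall. It was at 1052, 1009 and 974 CPM in sgControl and 756, 606 and 748 CPM in sgCTCF libraries, with the highest sgCTCF value far under the lowest control value (log2 difference -0.53 ± 0.11 SE, adjusted P = 0.0016). Rpl15, a 60S protein, was at 66.7, 61.4 and 60.6 CPM against 47.2, 43.2 and 43.2 CPM (-0.49 ± 0.15, adjusted P = 0.039). Rps2, at the messenger entry of the 40S subunit, was at 682, 719 and 660.4 CPM against 495, 491 and 522 CPM (-0.45 ± 0.10, adjusted P = 0.005). The control and sgCTCF libraries did not overlap for any of the 3. The other 17 called members had log2 differences from -0.44 to -0.30 and included Rpl36, Rpsa, Rpl13, Rps4x, Rpl6, Rps3, Rpl27a, Rpl4, Rpl32, Rpl3 and Rpl22.

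The number of calls moved with the setting. Without sgMed12 replicate 2, 44 members were called lower in sgCTCF cells (6.74% of all genes), and with only the 2 groups compared in the fit 48 were (8.33%). Leaving out an sgControl library gave 3 (replicate 1), 6 (replicate 2) or 9 (replicate 3), and leaving out an sgCTCF library gave 6, 3 or 8. A fit without the filter on low values gave 6, and edgeR gave 15. A total that leaves out mitochondrial genes and the most abundant gene gave 14. In these fits at most 3.65% of all genes were called lower. Rpl36a and Rps2 kept their call in all 21 alternatives run, while Rpl15 lost it in 8 of 21. The median difference stayed between -0.284 and -0.206 in the alternatives.

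Targeting of Med12 was compared with the same 3 sgControl libraries. Limma called 0 members higher and 27 lower, 34.2% of the 79, where 2.53% of genes were called higher and 4.7% lower. Of the 27, 18 encode 60S and 9 encode 40S proteins, 66 of 79 members had a log2 difference below 0, and the median was -0.268, beside -0.019 over all genes. Without overlap, 32 members were lower in every sgMed12 library than in every sgControl library, which 11.9% of all genes showed. By the study's 3 thresholds 0 members passed, where 1.03% of genes did.

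Rps27a, which makes a ubiquitin fused to a 40S protein, had the largest called fall, at 400.4, 358 and 338 CPM in sgControl and 189, 309 and 216 CPM in sgMed12 libraries (log2 difference -0.64 ± 0.13 SE, adjusted P = 0.0049). Rpl15 was at 43.8, 50.0 and 30.4 CPM in sgMed12 libraries (-0.62 ± 0.15, adjusted P = 0.017). Rpl13a, a 60S protein also known from the GAIT complex, was at 214, 207 and 171 CPM against 113, 160.4 and 116 CPM (-0.61 ± 0.12, adjusted P = 0.0051). In Rps27a, Rpl15 and Rpl13a alike, sgMed12 replicate 2 was the library nearest to the controls. Within the sgMed12 group the members had a median coefficient of variation of 12.48%, against 5.28% to 5.71% in the other 3 groups of experiment 2.

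The number of calls in sgMed12 cells also moved with the libraries held. Without replicate 2, limma called 50 members lower and 1 higher, where 13.5% of genes were called lower and 8.13% higher, and the median was -0.361. With replicates 1 and 3 left out, sgMed12 is 1 library assumed to vary like the other groups, and the 0 calls of that fit (0.832% of all genes lower, 0.187% higher) say little beside its median of -0.093. Leaving out replicate 1 gave 3, replicate 3 gave 2, and sgControl replicates 1, 2 and 3 gave 4, 3 and 11, where 1.09% to 1.87% of all genes were called lower. With only the 2 groups compared in the fit 0 members were called lower (0.791% of all genes), without the filter 4 (1.0%), with a total that leaves out mitochondrial genes and the most abundant gene 9 (1.99%), and by edgeR 17 (2.91%). Rps27a and Rpl13a kept their call in 20 of 22 alternatives and Rpl15 in 17.

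**Figure D3:**
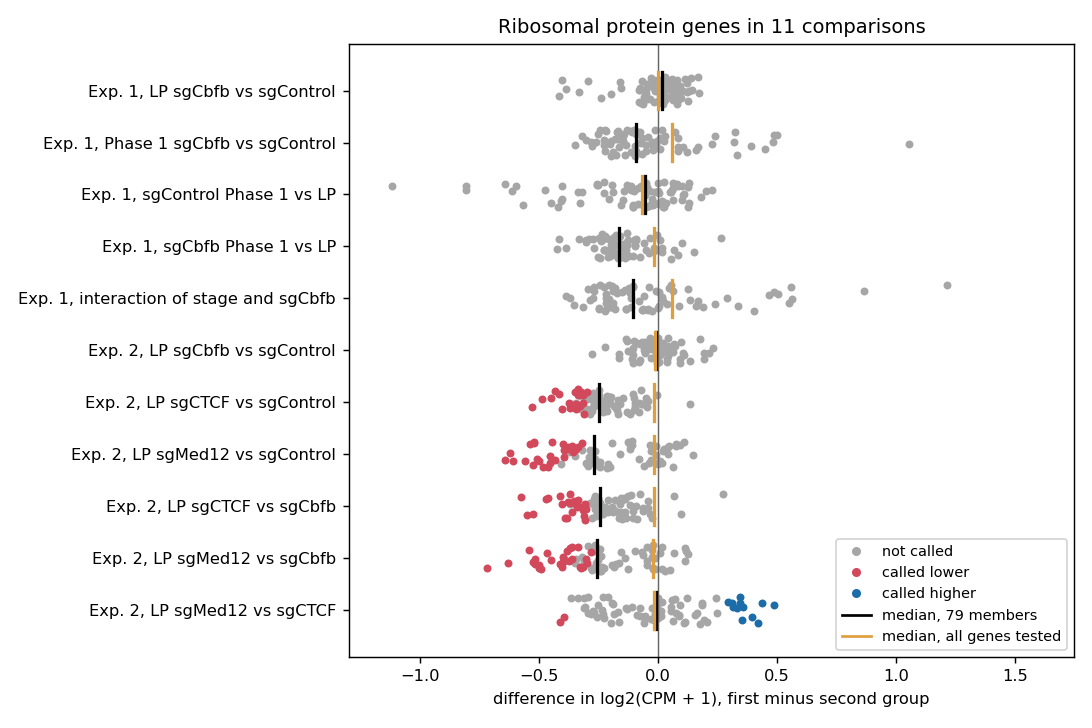
Differences in log2(CPM + 1) of the 79 ribosomal protein genes (points) in 11 comparisons, with the median of the members (black) and of all genes tested (orange); coloured points are called by limma. Members are shifted left of 0 in the sgCTCF and sgMed12 comparisons with sgControl (20 and 27 called lower) and centred near 0 in sgMed12 against sgCTCF.

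The 3 sgRNAs of experiment 2 were then set against each other. These comparisons share libraries with those above, so the values stand side by side. Against sgCbfb, sgCTCF cells had 0 members called higher and 23 lower, where 11.5% of genes were called higher and 10.9% lower, with a median of -0.243. Rpl36a was at 1126, 1038 and 970.4 CPM in sgCbfb libraries (-0.58 ± 0.11, adjusted P = 0.00022), Rpl10a at 81.4, 77.0 and 72.3 CPM against 53.9, 47.1 and 55.9 CPM (-0.55 ± 0.13, adjusted P = 0.0019), and Rpl22 at 1432, 1265 and 1286 CPM against 926, 879 and 956 CPM (-0.53 ± 0.10, adjusted P = 0.00025). All 3 kept their call in 21 of 21 alternatives. Counts of lower calls were 13 and 11 without sgCTCF replicates 1 and 2 (8.15% and 8.5% of all genes), 10 without sgCbfb replicate 1 (8.57%) and 46 without sgMed12 replicate 2 (13.6%).

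Against sgCbfb, sgMed12 cells had 0 members called higher and 27 lower, where 7.03% of genes were called higher and 9.77% lower, with a median of -0.258. Rpl13a was at 213, 209 and 212 CPM in sgCbfb libraries (-0.72 ± 0.12, adjusted P = 0.00012), Rps27a at 362, 368 and 353 CPM (-0.63 ± 0.13, adjusted P = 0.00088), and Rpl34, a 60S protein, at 1155, 1086 and 978 CPM against 639, 946 and 655 CPM (-0.54 ± 0.12, adjusted P = 0.0023). No sgMed12 library reached an sgCbfb library for any of them. Counts of lower calls were 51 without sgMed12 replicate 2 (15.6% of all genes), 13 and 7 without sgMed12 replicates 1 and 3 (7.6% and 7.14%), 13 and 12 without sgCbfb replicates 1 and 2 (7.31% and 6.81%), and 1 with sgMed12 held by replicate 2 alone (5.81%).

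Between sgMed12 and sgCTCF cells most called members were higher in sgMed12. Limma called 12 members higher and 2 lower in sgMed12, 15.2% and 2.53% of the 79, where 8.09% of genes were called higher and 11.9% lower. At unadjusted P under 0.05, 15 were higher and 15 lower, where 33.1% of all genes passed in either direction. Of the 79, 43 had a log2 difference below 0, as had 51.7% of all genes, and the median was -0.01. Rpl32, a 60S protein, was at 1659, 1672 and 1637 CPM in sgCTCF and 2699, 2039.7 and 2267 CPM in sgMed12 libraries (0.49 ± 0.11, adjusted P = 0.0024). Rpsa, a 40S protein also known as a laminin receptor, was at 621, 525 and 675 CPM against 922, 731 and 814 CPM (0.44 ± 0.11, adjusted P = 0.0045), and Rpl10a at 53.9, 47.1 and 55.9 CPM against 77.7, 71.2 and 62.4 CPM (0.42 ± 0.13, adjusted P = 0.02). In sgControl libraries Rpl32 was at 2164, 2194 and 1927 CPM and Rpsa at 836, 833 and 755 CPM, above every sgCTCF library and overlapping the sgMed12 libraries.

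The other 9 called higher included Rpl13, Rps20, Rpl4, Rps9, Rpl36, Rpl26 and Rps24, and the 2 called lower were Rpl23a and Rps27a. Rps20 was at 2319, 2177 and 2415 CPM in sgCTCF and 3115, 2671 and 3078 CPM in sgMed12 libraries. Rpl23a was at 2262, 2157 and 2326 CPM in sgCTCF libraries and at 1398, 2258 and 1519 CPM in sgMed12 libraries, so its groups overlapped through replicate 2. Rps27a overlapped in the same way, at 319, 280 and 321 CPM in sgCTCF and 189, 309 and 216 CPM in sgMed12 libraries. Without sgMed12 replicate 2 the balance turned to 14 higher and 26 lower, where 13.1% and 17.7% of all genes were called. Leaving out sgMed12 replicate 1 gave 7 higher and 0 lower, replicate 3 gave 6 and 0, both together (sgMed12 then 1 library) 4 and 0, sgCTCF replicate 2 gave 2 higher, and sgCTCF replicates 1 and 3 each 0 lower. With only the 2 groups compared in the fit 4 were higher and 0 lower. In these fits 2.43% to 5.96% of all genes were called higher and 5.03% to 9.87% lower.

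**Figure D4:**
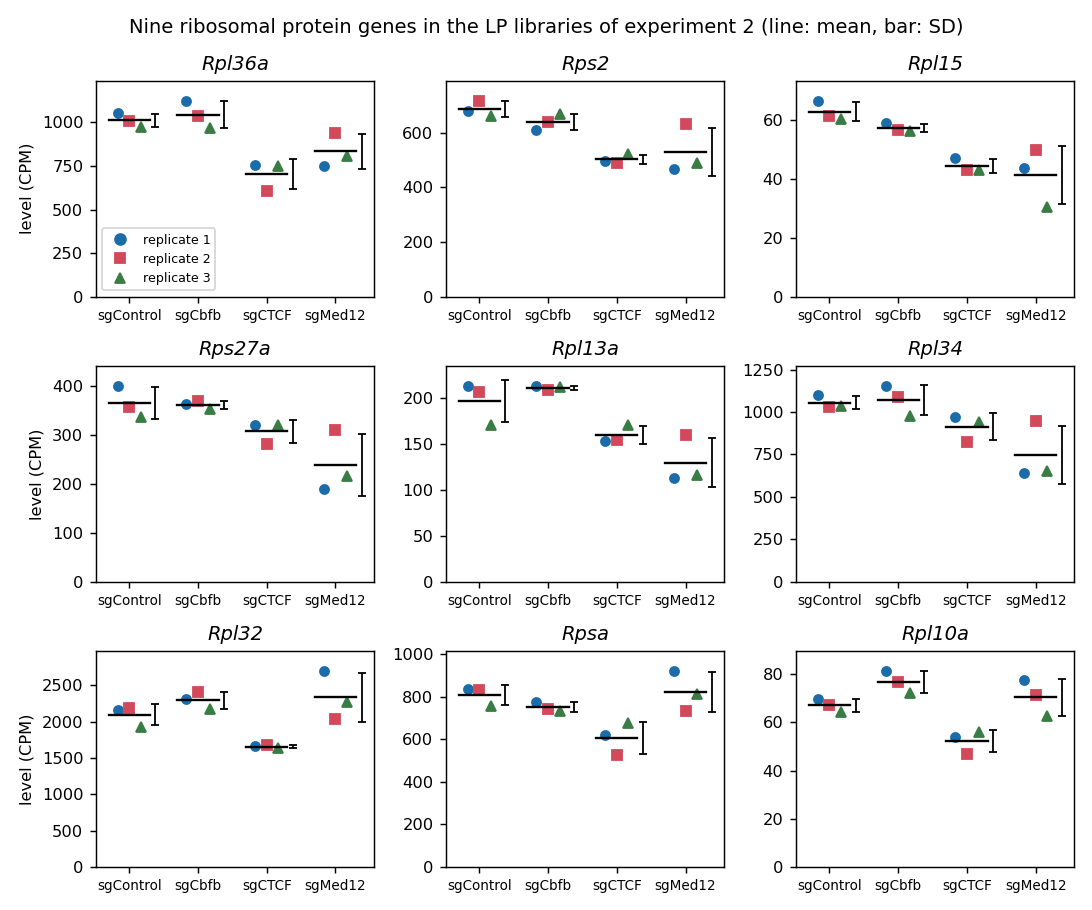
Levels (CPM, linear axes from 0) of 9 named ribosomal protein genes in the 12 LP libraries of experiment 2; points are replicates, lines means and bars SD (n = 3). The upper row is low in the 3 sgCTCF libraries, and its sgMed12 libraries also lie below every sgControl library. The middle row is lowest in sgMed12 replicates 1 and 3, and the lower row is higher in sgMed12 than in sgCTCF.

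Members were then grouped by role. The stalk of the 60S subunit, which recruits the translation factors, is built from Rplp0, Rplp1 and Rplp2. Rplp0 was at 856, 935 and 842 CPM in sgControl, 741, 704 and 774 CPM in sgCTCF and 688, 844 and 669 CPM in sgMed12 libraries, with log2 differences of -0.25 ± 0.10 and -0.27 ± 0.10 that were not called (adjusted P = 0.13 and 0.10). Rplp1 differed by -0.15 ± 0.10 and -0.04 ± 0.10 and Rplp2 by -0.17 ± 0.10 and -0.01 ± 0.10 in the same comparisons, and 0 of the 3 stalk genes was called in any of the 11 comparisons.

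Rpl5 and Rpl11, the proteins of the 5S particle that bind Mdm2, were called lower in sgMed12 cells in the main fit. Neither was called when the fit held only the sgMed12 and sgControl groups. Rpl5 was at 208, 233 and 194 CPM in sgControl and 128, 185 and 139 CPM in sgMed12 libraries (-0.50 ± 0.12, adjusted P = 0.017), and Rpl11 at 1423, 1319 and 1462 CPM against 997, 1286 and 1029 CPM (-0.35 ± 0.11, adjusted P = 0.048). In sgCTCF cells Rpl5 was at 181, 153 and 191 CPM and Rpl11 at 1315, 1097 and 1341 CPM, differences of -0.27 ± 0.12 and -0.17 ± 0.11 that were not called (adjusted P = 0.18 and 0.39).

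Rps19 and Rps14, 40S proteins known from inherited and acquired anaemias, gave no call against sgControl. Rps19 was at 859, 758 and 782 CPM in sgControl, 823, 668 and 752 CPM in sgCTCF and 765, 733 and 722 CPM in sgMed12 libraries, and the groups overlapped or nearly met. Rps6, the 40S protein phosphorylated by the S6 kinases, was among the lowest members, at 50.4 to 70.9 CPM in sgControl and 53.8 to 71.2 CPM in sgCTCF and sgMed12 libraries.

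Paralogs were read side by side because both members of a pair can enter the ribosome in some tissues. In sgCTCF cells Rpl22 fell, from 1144, 1213 and 1078 CPM to 926, 879 and 956 CPM (-0.31 ± 0.10, adjusted P = 0.042), while Rpl22l1 was at 172, 179 and 168 CPM against 129, 129.8 and 157 CPM (-0.32 ± 0.12, adjusted P = 0.096). In sgMed12 cells Rpl22l1 fell, to 107, 150.2 and 108 CPM (-0.52 ± 0.12, adjusted P = 0.014), while Rpl22 was at 908, 1112 and 995 CPM (-0.19 ± 0.10, adjusted P = 0.25). The difference between the paralogs was not tested.

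Rpl7 was at 1370.4, 1356 and 1362 CPM in sgControl and 754, 1259 and 867 CPM in sgMed12 libraries (-0.54 ± 0.13, adjusted P = 0.014), and Rpl7l1, a nucleolar relative, at 112, 121 and 128 CPM against 117, 134 and 122 CPM (0.05 ± 0.11, adjusted P = 0.84). Rps27 was at 686, 695 and 644 CPM in sgControl against 445, 669 and 500.4 CPM in sgMed12 libraries and Rps27l at 312, 294 and 313 CPM against 203, 334 and 228 CPM, neither called (adjusted P = 0.064 and 0.16). Rpl3, at the peptidyl transferase centre, was called lower in both sgCTCF (-0.34 ± 0.10, adjusted P = 0.03) and sgMed12 cells (-0.40 ± 0.10, adjusted P = 0.02). Rpl10 was called lower in sgMed12 cells (-0.56 ± 0.15, adjusted P = 0.027) with overlapping libraries, and Rpl39 was not called (-0.24 ± 0.12 in sgCTCF and -0.30 ± 0.12 in sgMed12 cells). Rpl39l and Rpl10l were listed at 0 CPM in every library.

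Rpl3l, the muscle paralog of Rpl3 that missed the level threshold, was higher in sgCbfb cells of experiment 2. It was at 6.07, 4.13 and 3.17 CPM in sgControl and 16.7, 27.1 and 19.6 CPM in sgCbfb libraries of experiment 2 (log2 difference 2.03 ± 0.30, adjusted P = 1.6e-05), and passed the study's 3 thresholds. In LP libraries of experiment 1, whose control values placed it outside the threshold, it was at 10.0, 3.10 and 8.35 CPM against 38.1, 18.4 and 32.8 CPM (1.97 ± 0.59, adjusted P = 0.085), and edgeR called it there (adjusted P = 0.017). In sgCTCF and sgMed12 libraries it was at 3.20 to 6.96 CPM, close to the sgControl libraries.

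Parts of the ribosome whose symbols lie outside the pattern were not called against sgControl. Of 5 tested, 0 passed in any comparison with sgControl, and 1, Rpl36al, was higher in sgMed12 than in sgCTCF cells (0.50 ± 0.17, adjusted P = 0.036). Rack1, the 40S scaffold, differed by -0.25 in both sgCTCF and sgMed12 cells (adjusted P = 0.15 in each), and Fau, which makes a 40S protein fused to a ubiquitin-like domain, by -0.11 and 0.11 (adjusted P = 0.62 in each).

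Translation factors whose messages also carry a TOP tract were tested as a list of 19. The shares of all genes called in each comparison, given above, are the background of this and the following lists. In sgCTCF cells 0 rose and 5 fell, with a list median of -0.232, and the largest falls were Nap1l1, a histone chaperone (-0.40 ± 0.10, adjusted P = 0.0067), and Pabpc1, the poly(A)-binding protein (-0.36 ± 0.11, adjusted P = 0.032). In sgMed12 cells 0 rose and 2 fell, with a median of -0.234, the elongation factor subunit Eef1b2 (-0.51 ± 0.12, adjusted P = 0.012) and Eif3f (-0.44 ± 0.11, adjusted P = 0.017). In sgCbfb cells 0 rose and 0 fell in both experiments.

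Ribosome biogenesis factors and RNA polymerase I subunits, 43 genes, gave 0 calls in sgCbfb against sgControl cells of experiment 1, in LP and in Phase 1. From LP to Phase 1 in sgControl cells 5 rose and 0 fell, with a list median of 0.308, led by Rrp1b (0.78 ± 0.18, adjusted P = 0.0094) and the RNA helicase Ddx21 (0.66 ± 0.15, adjusted P = 0.0062). In sgCTCF cells 0 rose and 5 fell, among them Nle1, a 60S assembly factor (-0.75 ± 0.22, adjusted P = 0.025), and Nop56 of the box C/D snoRNPs (-0.43 ± 0.14, adjusted P = 0.05). In sgMed12 cells 2 rose, against 2.53% of all genes, Taf1d of the polymerase I initiation factor (0.56 ± 0.13, adjusted P = 0.0099) and the nucleolar GTPase Gnl3 (0.44 ± 0.12, adjusted P = 0.03), and 0 fell. Against sgCTCF, 11 rose and 0 fell in sgMed12 cells.

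Of 20 genes of mTORC1 signalling and TOP regulation, 0 rose and 3 fell in sgCTCF cells. These were Myc (-1.23 ± 0.22, adjusted P = 0.00039), the translation inhibitor Eif4ebp1 (-0.94 ± 0.17, adjusted P = 0.00045) and the TOP-binding protein Larp1. In sgMed12 cells 0 rose and 3 fell, led by Eif4ebp1 (-0.96 ± 0.17, adjusted P = 0.0018) and Eif4ebp2 (-0.74 ± 0.15, adjusted P = 0.0053). In sgCbfb cells of experiment 2, 2 rose and 1 fell, the largest being Deptor (1.24 ± 0.39, adjusted P = 0.037) and Mycn (-0.94 ± 0.15, adjusted P = 5.3e-05).

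Of 19 tested genes of the p53 pathway, 8 rose and 0 fell in sgCTCF cells, among them the death receptor Fas (1.71 ± 0.35, adjusted P = 0.0016) and Trp53inp1 (1.12 ± 0.19, adjusted P = 0.00019). In sgMed12 cells 1 rose, the cell death gene Bax (1.03 ± 0.21, adjusted P = 0.0064), and 0 fell, and 1 of 19 is near the 2.53% of all genes called higher there. In Phase 1 sgCbfb cells 6 rose and 0 fell against sgControl, led by Plk2 and the cell death gene Pmaip1 (1.72 ± 0.25, adjusted P = 9e-05), while 0 ribosomal protein genes were called there.

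Mitochondrial ribosomal proteins, which serve the ribosome of the organelle, gave 1 higher and 1 lower of 77 in sgCTCF cells, Mrps16 and Mrps2, and 1 higher and 2 lower in sgMed12 cells. Their list medians were -0.136 and -0.035. Of 319 ribosomal protein pseudogenes 60 could be tested, 0 were called in any comparison with sgControl, and together they held 0.026% to 0.034% of reads in each library.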

How the data were processed

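RNA of 24 libraries was read with QuantSeq 3′ FWD (75-base single-end reads). The authors trimmed with fastp, aligned with STAR to mm10 and brought every library to an equal sum. The deposited values are named TPM but carry no length term and sum to the same total in each library, so they are treated as CPM. Whole reads could be recovered for 100.0% of low values. The counter, the annotation release and the handling of multiply mapped reads are not given in the sources used here. One deposited column of values (1 column, the authors' mean of a control group) was not used.

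Within an experiment, a gene was tested when 3 or more libraries reached 1 CPM. Tests were run with limma 3.58.1 (R 4.3.3) on log2(CPM + 1), with a mean-variance trend, all 4 groups of an experiment in 1 fit and Benjamini-Hochberg adjustment over all genes tested. A call is an adjusted P under 0.05. Differences on this scale understate changes of low genes. EdgeR 4.0.16 on recovered reads was an alternative, as were other pseudocounts and filters, other totals, fits of only the groups compared, a replicate block and leaving out each library. P-values rest on 3 libraries per group. In the main fit the spread of a gene is 1 estimate shared by the 4 groups of an experiment and moderated along the trend. An exact permutation test of 3 against 3 cannot go below 0.1. Intervals and floors cover counting error only.

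On simulated data for experiment 2 (12974 genes), limma recovered 28 of 100 genes changed 1.5-fold and 95 of 100 changed 2-fold. For experiment 1 (13182 genes) it recovered 18 and 84. The simulated counts had the same dispersion for every gene and no library that stood apart. These rates therefore do not give the power for the members.

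The members, gene lists and tests were chosen with earlier results of these data known. Genes were named by rule: per comparison up to 3 called members that rose most and 3 that fell most, provided their libraries did not overlap, the 5 highest members, 7 paralog pairs, 9 members of known role, those next to the level threshold, members with a called interaction, Fau, Rack1 and the targeted genes, and up to 2 called genes per further list. Others are named as called, or were chosen after their values were seen. Some items are not reported here. Promoter sequences came from RefSeq (GRCm38.p6), and exon overlaps from GENCODE M21.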

Additional observations from a re-analysis of the deposited data

How the results depend on the processing

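Directions of the members named by size of change did not reverse in any of the alternatives run (299 kept their call and 25 lost it), while counts of calls depended on the setting. These members were picked for groups whose libraries did not overlap. Leaving out libraries could therefore not reverse their direction, and for those alternatives the direction tests nothing. Without a filter on low values, lower calls were 6 (sgCTCF against sgControl), 4 (sgMed12 against sgControl), 15 (sgCTCF against sgCbfb) and 13 (sgMed12 against sgCbfb), and sgMed12 against sgCTCF gave 5 higher and 0 lower. With only the groups compared in the fit, lower calls were 48, 0, 46 and 10 in the same order (8.33%, 0.791%, 14.6% and 7.46% of all genes). In that setting 1 was higher in sgCTCF against sgCbfb (14.6%), and 4 higher (5.96%) and 0 lower (9.87%) in sgMed12 against sgCTCF. It also gave 2 lower in sgCbfb of experiment 2 (7.62%) and 4 lower in sgCbfb cells from LP to Phase 1 (2.62%). With a total without mitochondrial genes and the most abundant gene, lower calls in sgMed12 were 9 against sgControl, 13 against sgCbfb and 1 against sgCTCF, and the summed level changed by -5.12% and -6.44% against sgControl and sgCbfb. EdgeR gave 17 lower in sgMed12 against sgControl (2.91% of all genes) and 17 lower against sgCbfb (8.05%). Leaving out both sgMed12 libraries with a high mitochondrial share, chosen after seeing the data, left 1 sgMed12 library. The summed changes were then -4.25% against sgControl, -4.40% against sgCbfb and 11.54% against sgCTCF. Without the level threshold, 1 gene (Rpl3l) was called higher in sgCbfb of experiment 2, also 1 by the study's thresholds. The causes were not tested. Leaving out 1 library at a time gave, for Phase 1 sgCbfb against sgControl, 0 to 3 higher and 0 to 1 lower; for LP to Phase 1, 0 to 13 lower in sgControl and 0 to 2 lower in sgCbfb cells; for sgCbfb of experiment 2, 0 to 1 higher and 0 to 2 lower; for sgCTCF, 3 to 44 lower; for sgMed12, 0 to 1 higher and 2 to 50 lower; for sgCTCF against sgCbfb, 0 to 1 higher and 10 to 46 lower; for sgMed12 against sgCbfb, 7 to 51 lower; and for sgMed12 against sgCTCF, 2 to 14 higher and 0 to 26 lower. The replicate numbers were not used to pair the samples in the main fits. Correlations of same-numbered libraries ran from -0.038 to 0.14 in experiment 1 and from -0.13 to 0.216 in experiment 2. Their medians were 0.041 and 0.075, against -0.021 and -0.026 for libraries with other numbers. Of 18 same-numbered pairs, 2 were over 0.1 in experiment 1 and 6 in experiment 2. These values do not settle whether the samples were paired. With the replicate block, 2 members were called lower from LP to Phase 1 in sgControl cells, where 3.82% of all genes were. In sgMed12 against sgCTCF that block gave 4 lower, where 12.2% of all genes were, and no other count moved by over 1.5 times.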
